A study of Mus musculus with 6 samples.

Results

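The genes described here are 10 that act when growth plate chondrocytes enlarge and their matrix mineralizes: the transcription factor genes Mef2c, Dlx5, Dlx6 and Sp7, the receptor gene Fgfr3, the enzyme genes Alpl and Mmp9, and the matrix protein genes Spp1, Ibsp and Bglap. They were taken as a named list, all 10 lie on sequence the data cover, and that sequence holds 15771 protein-coding genes in all. MBD-seq, in which MBD2 protein pulls down DNA with methylated CpGs before sequencing, was run on 6 cultures of primary chondrocytes grown from mouse knee articular cartilage at postnatal day 3 to 5. Of these, 3 were controls labelled Dnmt1 flox and 3 were conditional knockouts (cKO) labelled Prx1-Cre;Dnmt1 flox/flox, in which Cre is driven by a promoter active in limb mesenchyme and deletes the maintenance DNA methyltransferase gene Dnmt1. The labels do not say whether the controls carry Cre, whether animals were pooled or how much Dnmt1 was left in the cultures. The data are 1 list of 84111 peaks called on 3 merged datasets. The title of the list calls its peaks regions methylated through Dnmt1, but nothing in it says which group was merged or what it was set against, so no value below belongs to a single culture and control and cKO could not be compared. Every value describes this list, with no replicate error and no test, and the depth of each culture is unknown. A list of methylation peaks has no expression values, so the chondrocyte label could not be set against marker genes.

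In the growth plate, chondrocytes stop dividing, swell and change the matrix around them, which then takes up mineral and is invaded by vessels and bone-forming cells. Mef2c, Dlx5 and Dlx6 encode transcription factors that promote this step, and Sp7 encodes osterix, a factor needed to make osteoblasts. Alkaline phosphatase, the product of Alpl, removes the mineralization inhibitor pyrophosphate. DNA methylation at CpG-rich starts of genes is commonly linked to silence, whereas methylation inside gene bodies is common in active and inactive genes.

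A peak was assigned to a gene when its midpoint lay in the gene body or within 10 kb of either gene end. By this rule 9 of the 10 genes had at least 1 peak, where 81.7% of all protein-coding genes did. In the body itself 8 of 10 had a peak, against 64.7% of protein-coding genes. A peak within 1 kb of either gene end was found for 2 of 10, Alpl and Dlx5, against 21.8% of protein-coding genes. The genes held 27 different peaks, 20 in bodies and 7 in flanks. They were short, with a median length of 11.3 kb against 18.6 kb for protein-coding genes, and had a median of 2 peaks each against 3.

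Each peak carries the authors' fold enrichment, a ratio of reads at the peak to the background their peak caller used, and a −log10 q-value. The fold of the 27 peaks ran from 6.24 to 32.2, with a median of 16.4, and the median over the whole list was 13.2. A fold of at least 20 was reached by 8 of the 27 peaks and by 28.9% of the list. The median width was 401 bp, against 415 bp for the list. Of the 27 peaks 3 (11.1%) were narrower than 100 bp, all of them peaks of Alpl, against 2.95% of the list. Fold and p-value together gave back the pileup (reads over the summit) and the background behind each peak. The median background of the list, 6.37 reads, applied to 24 of the 27 peaks, and 75% of all peaks had it or a lower one. For those 24 peaks the fold depends on the pileup alone, so equal pileups give equal values. The pileup of the 27 peaks lay between 45 and 363 reads. The 3 peaks with a higher background were the peaks of Dlx6 and Ibsp in the body and 1 of the pair in Dlx5.

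**Figure D1:**
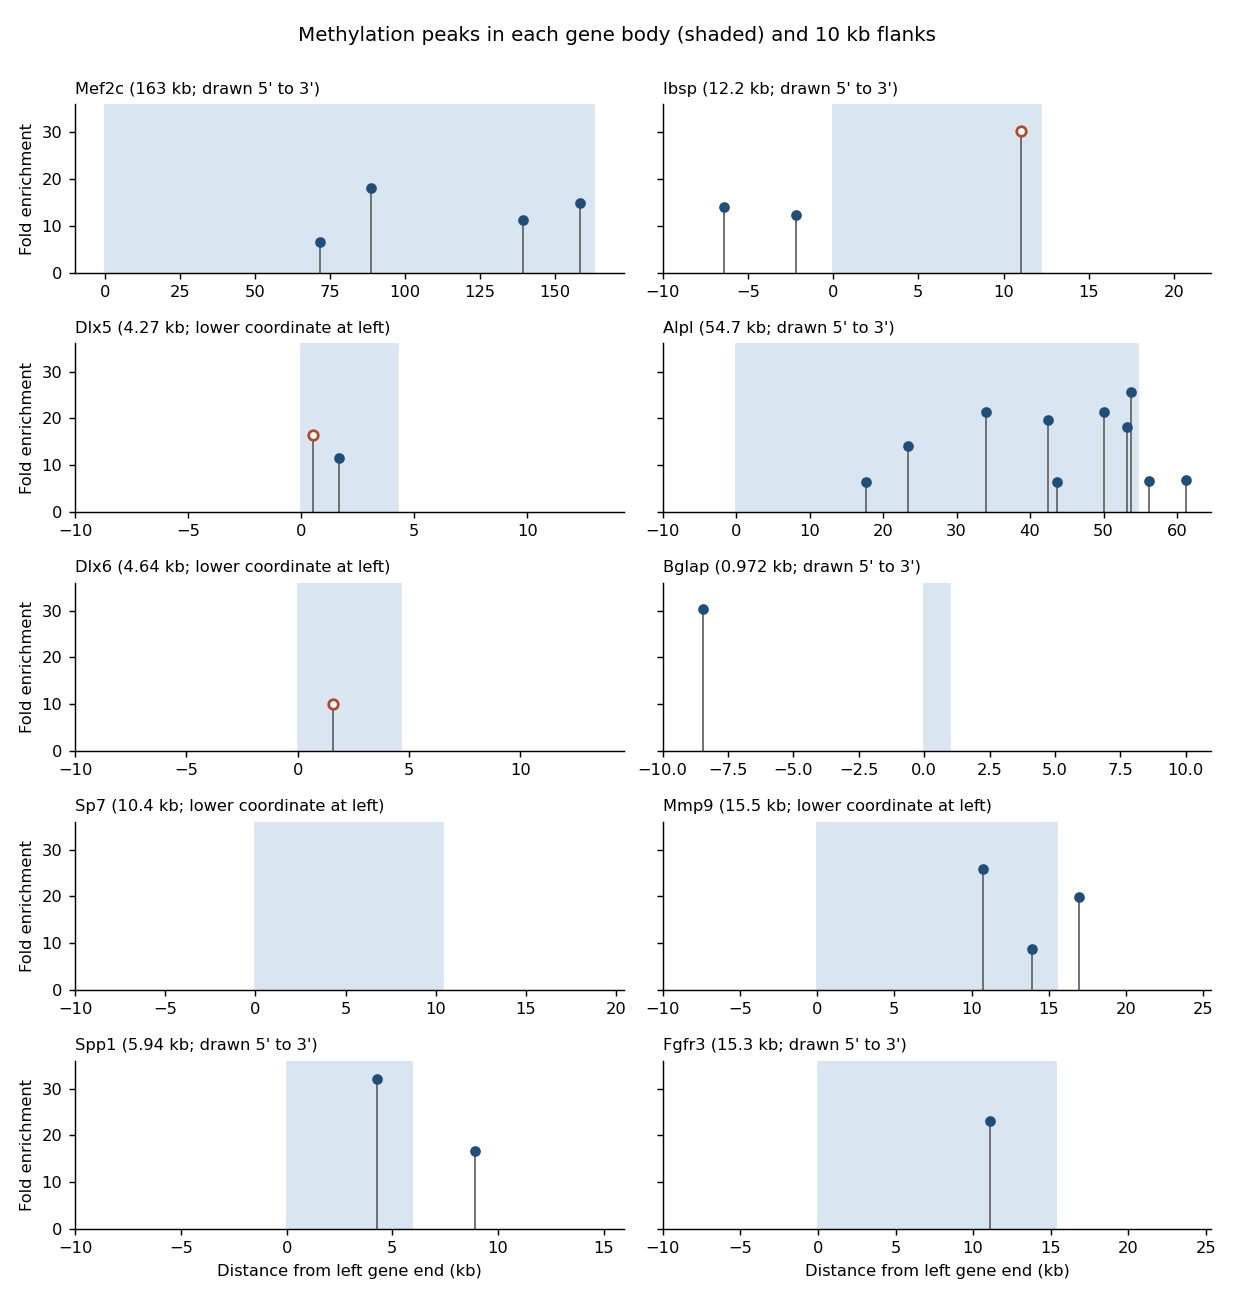
Fold enrichment (vertical axis) of each peak against its distance in kb from the gene end drawn at left (horizontal axis) for the 10 genes, with the gene body shaded and 10 kb on either side. Filled points are peaks at the median background of the list, 6.37 reads, and open points have a higher one. Sp7 has no peak, Alpl has 10, and the peaks of the genes drawn 5′ to 3′ leave the first part of each body empty.

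Among the transcription factor genes, Mef2c had 4 peaks, all in its body. The gene spans chr13:83504017-83667079 on the plus strand, 163 kb, and has 3 annotated starts. The first peak, chr13:83575519-83575687, had a fold of 6.51, a −log10 q of 23.4 and a pileup of 47 reads. It lay 2.0 kb past the innermost annotated start. The next, chr13:83592698-83593103, had the highest fold of the gene, 18.2, with a −log10 q of 121. The peak at chr13:83643315-83643544 had a fold of 11.3, and the peak at chr13:83662332-83662660, 4.58 kb before the 3′ end, had a fold of 14.9. The first 71.6 kb of the gene, which hold all 3 starts, contained no peak midpoint, and the nearest peak on the upstream side lay 78.1 kb before the gene. Mef2c had fewer peaks than most genes of its size. Of 605 protein-coding genes of similar length (from 20% shorter to 25% longer), 70.1% had more peaks and 23.5% had fewer, with a median of 7 and quartiles at 4 and 13.

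Dlx5 and Dlx6 are neighbours on chromosome 6 and encode homeobox factors of the limb skeleton. Dlx5 (chr6:6877801-6882068, 4.27 kb) held 2 peaks. That at chr6:6878101-6878584 had a fold of 16.4, a −log10 q of 124 and 145 reads over a background of 7.89, and its midpoint was 0.541 kb inside the gene end of lower coordinate. The other, chr6:6879277-6879693, had a fold of 11.4 and a −log10 q of 59.7. Of 1089 genes of similar length, 51.6% had fewer and 31.6% had more peaks with the flanks included, and 2.11% had more in the body. Dlx6 (chr6:6863334-6867970, 4.64 kb) held 1 peak, chr6:6864603-6865258, which was 656 bp wide. Its fold of 9.90 was below the median of the list, whereas its −log10 q of 158 was above it. Behind this stood 255 reads over a background of 24.9, the highest background among the 27 peaks. The peak also lies inside the long non-coding RNA genes Dlx6os1 and Dlx6os2, which overlap Dlx6, so it cannot be given to 1 of the 3. Among 1166 genes of similar length 29.3% had fewer and 48% had more peaks than Dlx6 with the flanks included, and 12.3% had more in the body.

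Sp7 (chr15:102356603-102367035, 10.4 kb) had no peak in its body or within 10 kb. The nearest, at chr15:102345453-102345876, was 10.9 kb away, inside Aaas, with a fold of 16.4 and a −log10 q of 104. On the other side, 15.3 kb away, the peak at chr15:102382235-102382435 had a fold of 8.95. Of 1615 genes of similar length 19% likewise had none. A flank of 20 kb in place of 10 kb gave Sp7 3 peaks. The list holds only peaks with a −log10 q of 20 or more, so weaker enrichment at Sp7 would not appear in it. For the other genes the peaks nearest outside the 10 kb flanks began at 10.4 kb (Dlx6, where it is the first peak of Dlx5) and 10.6 kb (Bglap), and the farthest peak inside was 8.48 kb away (Bglap).

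Fgfr3 encodes a fibroblast growth factor receptor that restrains chondrocyte division in the growth plate. The gene (chr5:33721724-33737068, 15.3 kb, plus strand) had 1 peak, chr5:33732621-33733054, 11.1 kb past its first annotated start. Its fold was 23.1, with a −log10 q of 170.3 and 169 reads. The nearest peaks outside lay 67.2 kb before and 22.6 kb after the gene. Of 1857 genes of similar length 64.2% had more peaks and 15.3% had none.

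Alpl had the most peaks of the 10 genes, with 8 in its body and 2 beyond its 3′ end. It spans chr4:137741731-137796384 on the minus strand, 54.7 kb, and has 2 annotated starts. The peak nearest the 3′ end, chr4:137742384-137742814, had the highest fold of the gene, 25.6, with a −log10 q of 198. It was followed inwards by chr4:137743047-137743437 with a fold of 18.2, equal to the highest fold in Mef2c because both rest on 133 reads. The peaks at chr4:137746163-137746622 and chr4:137762150-137762581 both had a fold of 21.4 from 157 reads. Between them lay chr4:137753732-137754180, with a fold of 19.7, and chr4:137752622-137752713, a narrow peak described below. At chr4:137772771-137773113 the fold was 14.1. The narrow peaks at chr4:137752622-137752713 (92 bp) and chr4:137778625-137778692 (68 bp) had a fold of 6.24 and a pileup of 45 reads, the lowest of the 27. Downstream of the gene, the narrow peak chr4:137740155-137740249 (95 bp) had a fold of 6.65 and chr4:137735044-137735220 a fold of 6.78. The stretch from the first start to 17.7 kb into the gene held no peak midpoint. Alpl had more peaks than most genes of its size. Of 1394 genes of similar length 83.6% had fewer and 12.9% had more, with a median of 4. With only peaks of −log10 q of at least 50, Alpl had 6 peaks, and with at least 100 it had 5. Its rank among genes of similar length at these cut-offs is not given here.

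Mmp9 encodes gelatinase B, a protease that degrades matrix where vessels and osteoclasts enter the growth plate. It spans chr2:164940326-164955850 (15.5 kb), held 2 peaks and had 1 more outside. At chr2:164950770-164951373 the fold was 25.8 and the −log10 q 199. At chr2:164954151-164954380 the fold was 8.68 and the −log10 q 38.5. The third, chr2:164957056-164957456, lay 1.41 kb beyond the gene end of higher coordinate with a fold of 19.8. All 3 were in or beyond the part of the gene with the higher coordinates. Of 1854 genes of similar length 52.8% had fewer peaks and 35.0% had more.

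Spp1 and Ibsp encode osteopontin and bone sialoprotein, acidic phosphoproteins of mineralized matrix that bind calcium and integrins. Spp1 (chr5:104435111-104441053, 5.94 kb, plus strand) had the highest fold of the 27 peaks, 32.2, at chr5:104439114-104439622 in its body. This peak had a −log10 q of 271 and 236 reads, and stood at percentile 91.9 of the whole list by fold. A second peak, chr5:104443847-104444195, lay 2.97 kb beyond the 3′ end with a fold of 16.6. The body peak of Ibsp (chr5:104299287-104311472, 12.2 kb, plus strand) was chr5:104309906-104310721, the widest of the 27 at 816 bp. It had the highest −log10 q of them, 398, from 363 reads over a background of 11 reads, and a fold of 30.3. Upstream of Ibsp, chr5:104296922-104297261 lay 2.20 kb before the start with a fold of 12.3, and chr5:104292702-104293045 lay 6.41 kb before it with a fold of 14.1. Of the 6 genes with an annotated start, Ibsp alone had a peak midpoint within 5 kb upstream of one. The share of protein-coding genes with such a peak was not counted, so how common this is cannot be said. Of genes of similar length, 34.3% of 1287 had more peaks than Spp1 and 32% of 1733 had more than Ibsp.

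Bglap encodes osteocalcin, a vitamin K-dependent protein of mature osteoblasts. The gene (chr3:88383495-88384466, 0.972 kb, minus strand) had no peak in its body, as did 92.2% of 919 genes of similar length. Its only peak within 10 kb, chr3:88392700-88393187, was 8.48 kb upstream, between Bglap and Pmf1, with a fold of 30.4 and a −log10 q of 250.4. This peak lay nearer Pmf1, whose end of lower coordinate is chr3:88394138, than Bglap. A flank of 5 kb left Bglap with no peak. The neighbouring copy Bglap3 held peaks at chr3:88370042-88370604 and chr3:88371116-88372079 with folds of 30.1 and 30.7, and 1 more at chr3:88372754-88373019, just outside it, had a fold of 9.36. Bglap2, between them, like Bglap had none in its body. Bglap and Bglap2 are closely similar in sequence, and how reads that map to both were treated is not given in the sources used here, so the absence of peaks at either is uncertain.

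The starts of the genes were considered next. A RefSeq table of GRCm38.p6 gave 11 annotated starts for 6 of the genes, Mef2c, Spp1, Ibsp, Alpl, Bglap and Fgfr3, and none for Dlx5, Dlx6, Sp7 and Mmp9. A window of 250 bases before to 50 after the start was overlapped by a peak at 0 of the 11 starts, against 2.96% of the 15401 start windows of protein-coding genes. Within 1 kb of a start there was a peak midpoint for 0 of 11, against 6.88%. Both background shares are so low that 0 of 11 is close to them. The dinucleotide CG, which reads the same on both strands and is the site of methylation, was counted in the 250 bases before each start. It occurred at least once in 94.4% of protein-coding windows, with a median of 11. Of the 11 starts of the hypertrophy and mineralization genes, 7 had 4 CG or fewer, as did 31.1% of protein-coding windows. The first starts of Alpl and Fgfr3 had 20 and 19 CG, and the second start of Fgfr3 had 24. In contrast, the first starts of Mef2c, Ibsp, Spp1 and Bglap had 1, 2, 3 and 4 CG. The second starts of Spp1, Alpl and Mef2c had 3, 4 and 6 CG, and the innermost start of Mef2c had 4. A start with few CG offers few sites for the pull-down, so a missing peak there does not show that it was unmethylated. The sequences of 2 CG-rich and 2 CG-poor starts are shown 5′ to 3′ on the strand of the gene, with each CG in capitals. These windows held no peak, and their content of methylatable sites differed. They lie at chr4:137796385-137796634 (minus) for Alpl, chr5:33721474-33721723 (plus) for Fgfr3, chr5:104434861-104435110 (plus) for Spp1 and chr5:104299037-104299286 (plus) for Ibsp.
Alpl: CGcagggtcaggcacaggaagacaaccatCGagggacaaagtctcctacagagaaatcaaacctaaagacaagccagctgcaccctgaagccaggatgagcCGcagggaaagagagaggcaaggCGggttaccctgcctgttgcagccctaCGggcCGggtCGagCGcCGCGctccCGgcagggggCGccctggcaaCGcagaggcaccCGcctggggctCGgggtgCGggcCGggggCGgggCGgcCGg
Fgfr3: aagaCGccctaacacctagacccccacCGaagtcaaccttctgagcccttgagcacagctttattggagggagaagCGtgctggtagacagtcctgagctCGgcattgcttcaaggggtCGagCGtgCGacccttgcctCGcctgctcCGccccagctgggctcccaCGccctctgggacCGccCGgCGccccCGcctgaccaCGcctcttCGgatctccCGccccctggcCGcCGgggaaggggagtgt
Spp1: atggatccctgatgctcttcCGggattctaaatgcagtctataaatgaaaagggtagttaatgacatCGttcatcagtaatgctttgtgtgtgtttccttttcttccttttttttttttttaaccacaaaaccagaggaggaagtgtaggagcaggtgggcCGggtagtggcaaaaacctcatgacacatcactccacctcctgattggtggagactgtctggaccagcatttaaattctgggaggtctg
Ibsp: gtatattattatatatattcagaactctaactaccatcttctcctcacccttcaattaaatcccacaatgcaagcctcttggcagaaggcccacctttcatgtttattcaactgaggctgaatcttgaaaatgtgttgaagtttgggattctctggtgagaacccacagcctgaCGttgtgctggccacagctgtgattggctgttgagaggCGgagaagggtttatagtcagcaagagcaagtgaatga
In these letters most CG sites of Alpl and of Fgfr3 lie in the part of the window nearer the start, and Spp1 and Ibsp have few. Among protein-coding start windows, those with 20 or more CG were overlapped by a peak in 0.702% of 3991 cases. The share was 2.29% of 4149 windows with 10 to 19 CG, the class of the first start of Fgfr3. Windows with 5 to 9 CG were overlapped in 8.33% of 2473 cases, and those with 4 or fewer in 2.65% of 4788. From the nearest start, the closest peak lay 2.0 kb away for Mef2c, 2.20 kb for Ibsp, 3.18 kb for Spp1, 4.11 kb for Alpl, 8.48 kb for Bglap and 10.5 kb for Fgfr3.

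Peaks in the bodies lay mostly towards the 3′ end. Of the 15 body peaks in genes with a known strand, 12 (80%) were past the midpoint of the gene, and none was in the first 30% of its length. In all protein-coding genes with a known strand and a length of at least 2 kb, 61.9% of 35382 body peaks were past the midpoint and 20.4% were in the first 30%. The share rose from 5.65% of peaks in the first 10% of the length to 16.5% in the last 10%. The tilt of the 12 of 15 therefore has the direction of genes in general, and 8 of the 15 peaks come from Alpl alone. The body peaks of Fgfr3, Spp1 and Ibsp were at 72.4%, 71.6% and 90.5% of the length. Those of Mef2c ran from 43.9% to 97.2%, and those of Alpl from 32.4% to 98.4%.

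**Figure D2:**
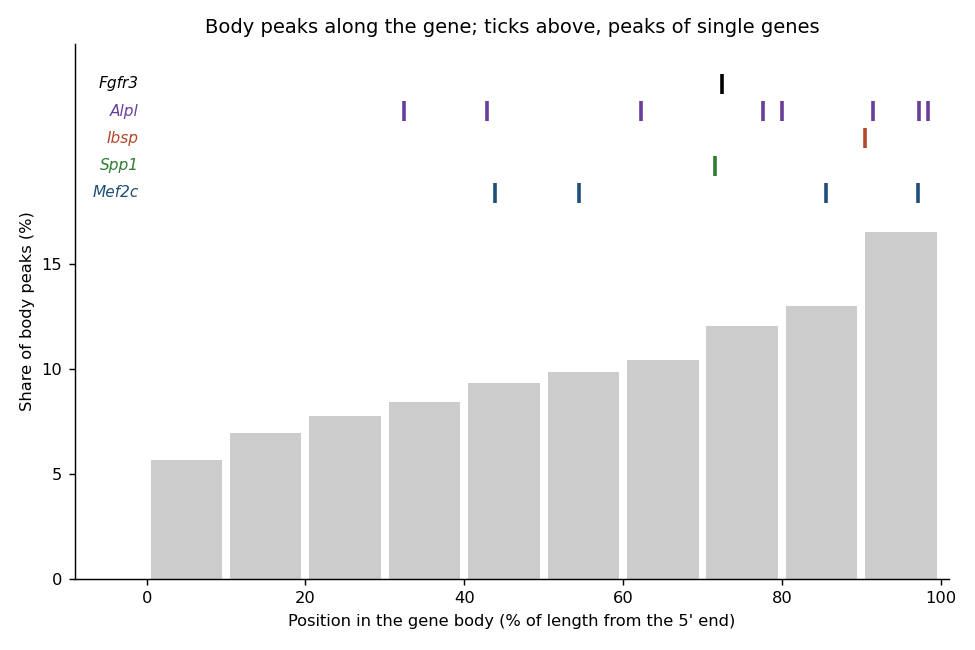
Share of body peaks in each 10% of the gene's length (bars, all protein-coding genes with a known strand and at least 2 kb long), against position from the 5′ end in percent of gene length. Ticks above the bars mark the 15 body peaks of Mef2c, Spp1, Ibsp, Alpl and Fgfr3, none of which lies in the first 30%.

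The neighbourhoods of the paired genes differed in how many peaks they held. From 100 kb before Ibsp to 100 kb after Spp1, a stretch of 342 kb, there were 26 peaks with folds from 7.33 to 42.6 and a median of 19. Cut into windows of this size, the covered chromosomes had a median of 11 peaks per window (quartiles 7 and 19, 5703 windows, assembly gaps included), and 13.0% had more than 26. This stretch is part of a cluster of genes for acidic phosphoproteins of bone and tooth. Dmp1, for a matrix protein of osteocytes, held 1 peak, chr5:104211655-104212867, with a fold of 21.3. Mepe, for a matrix phosphoglycoprotein, held 2 weak peaks with folds of 7.33 and 7.60. The 124 kb between Ibsp and Spp1 held 8 peaks, including those in Mepe. Of the others, 5 lay in the gene-free interval between Mepe and Spp1 more than 20 kb from either gene, with folds of 9.14, 22.0, 18.5, 23.9 and 19.5, and 1 with a fold of 10.3 was 4.78 kb past Mepe. The peak with a fold of 9.14 (chr5:104361282-104362179) had 360 reads over a background of 38.5. Past Spp1, Pkd2, the gene of polycystin 2, held 8 peaks with folds from 14.8 to 42.6. Of the 26 peaks 15 lay in a gene and 11 in none, and the in-gene share of the whole list was not counted. The median background of the list applied to 17 of the 26, and the other 9 had a higher one. Of all peaks, 75% had the median background or a lower one.

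Around Dlx6 and Dlx5 the picture was sparse. From 100 kb before Dlx6 to 100 kb after Dlx5, 219 kb, there were 4 peaks, of which 3 were those in the bodies described above. The fourth, chr6:6905535-6905659, lay 23.5 kb from Dlx5 with a fold of 7.19. Windows of this size had a median of 7 peaks (quartiles 4 and 12, 8915 windows); 69.9% had more than 4 and 22.0% had fewer. The 9.83 kb between the pair held no peak, and on the far side of Dlx6 the nearest peak was 141 kb away. Dlx6os1, 51.1 kb long, contained only the peak it shares with Dlx6. The 5 peaks of Sdhaf3, whose gene begins 73.9 kb past Dlx5, all lay outside this stretch.

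**Figure D3:**
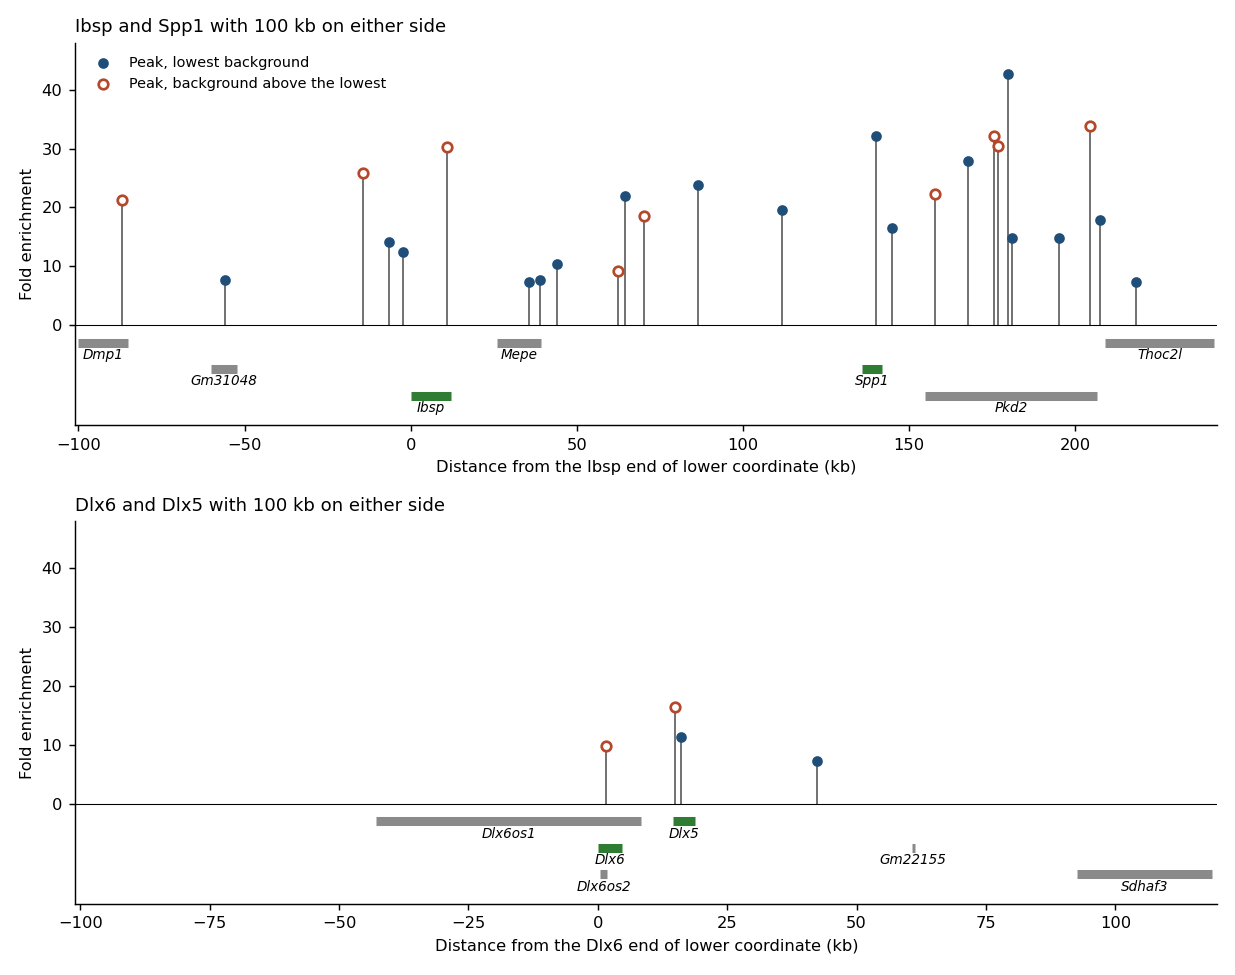
Fold enrichment of each peak (vertical axis) along the Ibsp and Spp1 neighbourhood (top) and the Dlx6 and Dlx5 neighbourhood (bottom), in kb from the end of lower coordinate of the first gene. Bars below the axis are genes, green for the genes of the list. The upper stretch has 26 peaks in 342 kb and the lower 4 in 219 kb. What the key calls the lowest background is 6.37 reads, the median of the list.

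Longer genes hold more peaks, so each count was also ranked among genes of similar length. Bglap, Dlx5, Ibsp, Alpl and Mmp9 (5 of 10) had more peaks than the median of such genes, against 44% of all protein-coding genes ranked in the same way. Sp7, Fgfr3 and Mef2c (3 of 10) had fewer, against 38.6%, and Spp1 and Dlx6 were at the median. The split is near that of protein-coding genes in general. With the 200 genes nearest in length as the reference, or with flanks of 20 kb, 3 genes were above the median.

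**Figure D4:**
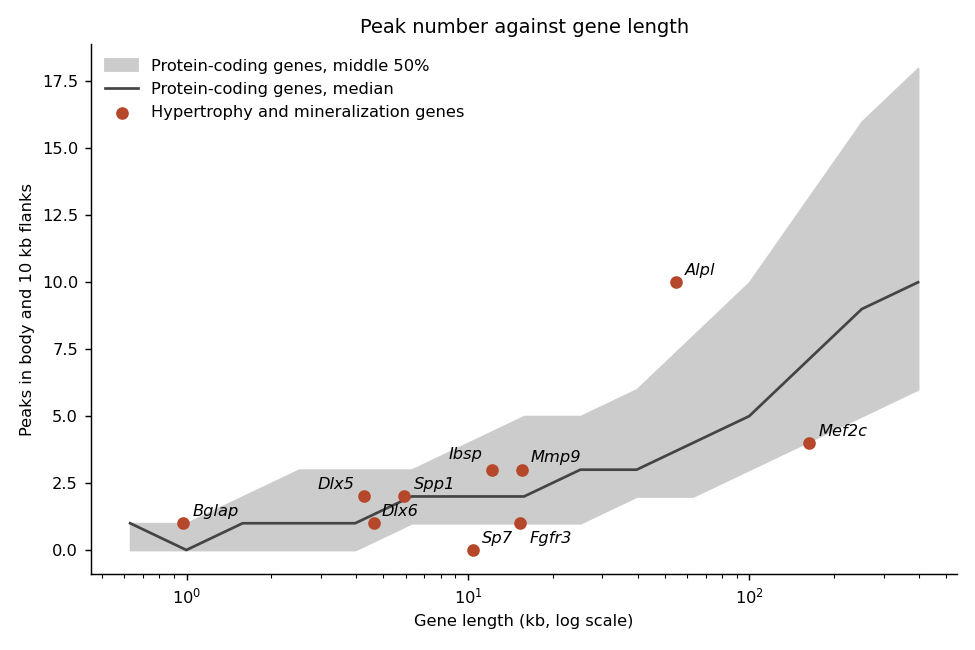
Number of peaks in the body and 10 kb flanks (vertical axis) against gene length in kb on a log axis. Points are the 10 genes; the line and the band are the median and the middle 50% of protein-coding genes in bins of length, above which Alpl stands with 10 peaks.

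A further list of 42 genes of hypertrophy and mineralization gave the surroundings of these results; 34 were on covered sequence and 8 were not analysed here. At least 1 peak in the body or within 10 kb was found for 32 of the 34 (94.1%), and 28 (82.4%) had one in the body, against 81.7% and 64.7% of protein-coding genes. The exceptions were Col1a2, for a chain of type I collagen, and Dlx4, a further Dlx homeobox gene, with no peak. More peaks than the median for their length were found in 18 of the 34 genes and fewer in 14, against 44% and 38.6% of protein-coding genes. The 5 that ranked highest for their length were Bglap2, Fgfr4, another receptor of the Fgfr3 family, with 8, Runx3 with 13, Ank, which exports pyrophosphate, with 19, and Tnfsf11, the osteoclast factor RANKL, with 8. The 3 peaks counted for Bglap2 are the 3 of Bglap3 given above, which lie in its flank. A peak within 1 kb of a gene end was found in 8 of the 34 (23.5%, against 21.8% of protein-coding genes), namely Akp3, Hdac4, Bglap3, Mepe, Fgf18, Fgfr4, Tnfsf11 and Ank. Among relatives of the genes above, the Dlx gene Dlx3 had 3 peaks, above the median of 2 for its length. Akp3 and Alpi, intestinal relatives of Alpl, had 4 and 2. Mef2d had 2 peaks in 30.2 kb, also below the median of 3 for its length. Runx2, the main regulator of chondrocyte hypertrophy and osteoblasts, had 6 peaks in 319 kb, fewer than 68.7% of genes of similar length, and Col10a1, the collagen gene that marks hypertrophic chondrocytes, had 2.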

How the data were processed

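The data are 1 deposited list of peaks from MBD-seq. The peak names record a Samtools merge of 3 datasets before calling. The submitters' processing notes name fastp, Bowtie2, MACS2 and the builds mm10 and GRCm38, without settings. Which cultures were merged and what served as background is not given in the sources used here. The authors deposited for each peak its fold enrichment (a ratio to background), its −log10 p, its −log10 q and a score that repeats the −log10 q as a whole number; the score was not used. An incomplete last line on chromosome 6 was left out. The list covers chromosomes 1 to 5, 10 to 19 and part of 6; genes in the first 3 Mb of a chromosome were left out.

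Genes and starts came from RefSeq tables of GRCm38.p6, and the submitters' notes name GRCm38. The tables hold no exons, so exons and introns were not analysed here. Coordinates are 1-based. Peaks were placed by midpoint with Python 3.11.15, numpy 2.4.6 and pandas 2.3.3. Pileup and background were solved from fold = (pileup + 1)/(background + 1) and a Poisson tail, with 99.97% of peaks matched by a whole pileup within 1% of the step to the next; counting and recovery were checked on simulated data. Since the list has no value per culture, no test was made and no precision between cultures can be given.

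The 10 genes, the further list and all alternatives were chosen with earlier results of these data known. All 10 genes are named with their peaks, every gene and peak of the paired neighbourhoods was considered, and genes of the further list are named by a peak at a gene end or as the 5 that rank highest for their length; Col1a2, Dlx4, Dlx3, Alpi, Mef2d, Runx2 and Col10a1 were added after their values were seen. Alternatives changed the placement, flank, gene-end distance, −log10 q, merging of peaks and the reference genes.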

Additional observations from a re-analysis of the deposited data

How the results depend on the processing

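No paired analysis was possible because no peak has a value per culture, and for the same reason no replicate was left out. The number of genes with a peak in the body or within 10 kb and the number with one in the body stayed within 1.5 times the main count under the alternatives run. The median fold was 16.4 and ran from 15.7 to 21.4, highest with a −log10 q of at least 100, a filter that raises it by construction. The 27 peaks became 15 with a −log10 q of at least 100 and 44 with a flank of 20 kb. Genes above the median for their length fell from 5 to 3 with a flank of 20 kb and to 3 with the 200 genes nearest in length. Genes with a peak near a gene end, 2 at 1 kb, numbered 0 at 500 bp, 6 at 2 kb and 1 after merging peaks within 500 bp. With annotated starts in place of gene ends, an alternative added after seeing the data, 0 of 6 genes had one. The matching shares of protein-coding genes were not counted for these alternatives, so the counts cannot be set against genes in general. Per gene, 60 of 70 recounts were within 1.5 times the main count. Fgfr3 had 1 peak in all of its recounts, whereas Alpl ranged from 5 to 14 and Sp7 from 0 to 3. Fewer peaks at a stricter −log10 q and more with wider flanks follow from how these alternatives are built; the cause of the other changes was not tested.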

Other observations

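The 3 highest folds among the 27 peaks were at peaks assigned to matrix protein genes. They were 30.4-fold 8.48 kb upstream of Bglap, 30.3-fold at 90.5% of the length of Ibsp and 32.2-fold at 71.6% of the length of Spp1. The peak assigned to Bglap lies nearer Pmf1 than Bglap. The genes with the next highest folds were Mmp9 with 25.8-fold, Alpl with 25.6-fold and Fgfr3 with 23.1-fold. By fold the peaks of Bglap, Ibsp and Spp1 stood at percentiles 89.7, 89.6 and 91.9 of the list. The peaks of the Bglap3 body, 30.1-fold and 30.7-fold, are at the same level, while Paqr6 beside it holds a peak of 22.1-fold at chr3:88365762-88366384. These peaks were singled out after their values were seen, and their number allows no test.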
